A study of Mus musculus with 12 samples.

Results

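The genes described here are 10 of the 24098 genes in a table of mRNA levels from mouse cells: Il6, Lif, Il11, Csf3, Cxcl1, Cxcl2, Cxcl5, Ccl2, Ccl7 and Ptgs2. They were found by symbol, and all 10 passed the minimum of 1 FPKM in at least 1 library, as did 14178 genes of the table. FPKM, the unit used throughout, counts sequenced fragments and scales them to transcript length and to the size of the library. Of the 10, the genes Il6, Lif, Csf3 and Cxcl2 were chosen by their high value in the day 9 Thy-1+ library, and the other 6 were added as related inflammatory genes. The day 9 Thy-1+ level is therefore a description and not a finding for those 4, as is any difference that contains it.

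Mouse embryonic fibroblasts (MEFs) that carry GFP behind Oct4 were infected with pMXs retroviruses for the OSKM factors (Sox2, Klf4, Oct4, c-Myc), and 12 mRNA libraries were made, 1 for each condition. D0 was the day 0 MEFs, which the labels call wild type, and D3 the unsorted cells of day 3 after OSKM. For days 6 and 9, the sort used the fibroblast surface protein Thy-1 and gave Thy-1+ (D6T+, D9T+) and Thy-1- cells (D6T-, D9T-). For days 12 and 16 it used SSEA-1, a surface carbohydrate of mouse pluripotent cells, and gave SSEA-1- (D12S-, D16S-) and SSEA-1+ cells (D12S+, D16S+). The study takes Thy-1- and then SSEA-1+ cells as the successful route and Thy-1+ and then SSEA-1- cells as the unsuccessful one. The remaining libraries were established iPSCs and ESD3, a mouse embryonic stem cell line whose name has nothing to do with day 3. MEFs were grown in medium with fetal bovine serum, while the labels give the reprogramming cells, iPSCs and ESD3 a serum replacement medium with added LIF protein, basic FGF, ascorbic acid and CHIR99021. The study's methods also name other LIF media for these cells, 1 of them with serum, so the medium of a given library is not certain. The difference between day 0 and later days and that between the media therefore cannot be told apart, and the Lif values below are those of the cells' own transcript. Day, sort and library cannot be told apart either, since each condition is 1 library.

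IL-6, LIF and IL-11 are ligands of the family that signals through the shared receptor chain gp130 to JAK kinases and STAT3, and LIF is the member that keeps mouse embryonic stem cells undifferentiated in culture. G-CSF, the product of Csf3, drives the formation of neutrophils. Cxcl1, Cxcl2 and Cxcl5 encode chemokines that draw neutrophils through CXCR2, Ccl2 and Ccl7 encode chemokines that draw monocytes through CCR2, and Ptgs2 encodes COX-2, the inducible enzyme of prostaglandin synthesis. Fibroblasts can make all of these after interleukin-1, TNF or injury. The transcripts are usually scarce at rest, because their promoters need inducible factors such as NF-kappaB, AP-1 and C/EBP, and because many carry AU-rich elements in the 3′ untranslated region (3′ UTR) that mark them for rapid decay.

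The genes lie in several places of the genome, given here for the mm9 build in GENCODE M1. Cxcl5, Cxcl1 and Cxcl2 share the CXC chemokine cluster of chromosome 5 (chr5:91188325-91334935, 146.6 kb), and Il6 lies apart from them at chr5:30339701-30346508. Ccl2 and Ccl7 are neighbours within 12.0 kb of chromosome 11 (chr11:81849073-81861027), on which Lif (chr11:4157560-4172517) and Csf3 (chr11:98562577-98564943) stand far from them. Il11 is on the minus strand at chr7:4724669-4734460, and Ptgs2 is at chr1:151947254-151955140. The other 9 genes are on the plus strand, all 10 are protein-coding, and no other gene of the table overlaps any of them.

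Promoter sequences (250 bases before to 50 after a start) were taken from RefSeq on GRCm38.p6, where 6 of the 10 genes matched: Il6, Lif, Il11, Cxcl1, Cxcl2 and Ptgs2, with Csf3, Cxcl5, Ccl2 and Ccl7 not matched. A kappaB motif (GGG, any 2 bases, then TTTCC, on either strand) was in 3 of these 6 genes against 1.63% of all 32851 promoters of the same length. The 3 were Il6, Cxcl1 and Cxcl2, and they are shown because NF-kappaB is a known inducer of all 3. Each line gives 100 bases, 5′ to 3′ along the gene, with kappaB matches in capitals. All 3 are plus strand, at chr5:90891125-90891224 for Cxcl1, chr5:90903779-90903878 for Cxcl2 and chr5:30013014-30013113 for Il6.
Cxcl1: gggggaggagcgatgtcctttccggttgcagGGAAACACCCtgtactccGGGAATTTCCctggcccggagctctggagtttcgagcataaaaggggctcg
Cxcl2: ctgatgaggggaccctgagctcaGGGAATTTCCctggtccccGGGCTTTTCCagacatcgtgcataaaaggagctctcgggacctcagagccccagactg
Il6: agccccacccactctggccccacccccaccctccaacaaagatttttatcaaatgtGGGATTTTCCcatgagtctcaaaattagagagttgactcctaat

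The same 10 letters, GGGAATTTCC, occur in Cxcl1 from base -71 and in Cxcl2 from base -97, counted back from the start. Cxcl2 holds a second match from base -78, and the other match of Cxcl1, from base -89, reads on the opposite strand. The match of Il6 begins at base -44. An AP-1 motif, TGANTCA, was in Il6, Lif and Il11 against 7.81% of all promoters, and a C/EBP motif, TTGCNNAA on either strand, was in Il6 and Ptgs2 against 10.8%. No match overlapped another in these 6 genes. Lif and Il11 (1 of its 2 starts) are shown with the AP-1 match in capitals and Ptgs2 with the C/EBP match, since none of the 3 held the kappaB letters in this window. They lie at chr11:4257318-4257417 (plus strand), chr7:4778192-4778291 (minus strand) and chr1:150099911-150100010 (plus strand).
Lif: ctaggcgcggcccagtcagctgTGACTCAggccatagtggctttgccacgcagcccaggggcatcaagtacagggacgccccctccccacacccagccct
Il11: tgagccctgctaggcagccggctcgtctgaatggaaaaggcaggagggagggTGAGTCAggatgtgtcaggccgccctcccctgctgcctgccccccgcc
Ptgs2: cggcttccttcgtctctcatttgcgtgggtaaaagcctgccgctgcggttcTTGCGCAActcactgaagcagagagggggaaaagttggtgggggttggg

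AU-rich elements were counted in the longest 3′ UTR of each gene in GENCODE M1. The nonamer TTATTTATT was in 5 of the 10 genes against 6.52% of 19915 genes with a 3′ UTR. Il11 held 5 copies in 500.0 bases, Cxcl2 held 4 in 1465, Lif 2 in 3180, Cxcl1 2 in 592 and Ptgs2 1 in 2228. The shorter pentamer ATTTA was in all 10, from 2.20 per kilobase in Lif to 14.0 in Il11, with a median of 6.45 against 1.36 over all genes with at least 275 bases. Ccl2 had a single pentamer in 275 bases, and Il6 had 5 in 420.0 bases without a nonamer. The first nonamer of each of the 5 genes is shown in capitals within 29 bases of the transcript.
Il11: aaaccagatcTTATTTATTTATTTATTtt
Cxcl1: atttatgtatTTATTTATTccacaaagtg
Cxcl2: gagagttcacTTATTTATTtatctatgta
Lif: aaaggggcctTTATTTATTatttaaaact
Ptgs2: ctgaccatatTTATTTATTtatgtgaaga

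Each condition has 1 library and no replicate, so the differences below were not tested and carry no p-value. The total FPKM ranged from 485000 to 648000, and the depth estimated from the steps of low genes ranged from about 21500000 fragments in D9T+ to about 34700000 in D6T-. It is on the scale of the deposited FPKM and need not equal the mapped fragments of a library. With this depth, FPKM values were turned into approximate fragments per gene, and the intervals given for ratios are exact 95% binomial intervals that cover counting error only. The interval that cuffdiff gave each FPKM was far wider, with a median half-width of 100.1% of the FPKM. Ordered by level within each gene, 0 of 110 pairs of neighbouring libraries had cuffdiff intervals that stood apart, so no 2 neighbours in any order below differ beyond them. D9T+ stood above another library by these intervals in 11 of 110 pairs, all of them against D16S+, iPSCs or ESD3. In bulk RNA, fewer cells of a kind and less RNA per cell cannot be told apart.

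The 7 genes Il6, Lif, Csf3, Cxcl1, Cxcl2, Cxcl5 and Ptgs2 were highest of all 12 libraries in D9T+, and Ccl2, Ccl7 and Il11 were highest in D0. D9T+ was the highest library of 4.3% of the kept genes. The 4 genes chosen by that value had to be there, which leaves 3 of the other 6. D9T+ was at least 2-fold above every other library in 5 genes (Il6, Lif, Csf3, Cxcl1 and Cxcl2) against 0.261% of the kept genes, and Cxcl1 is the 1 among them that was not chosen by this value. Counts at 2-fold and medians are on log2(FPKM + 1), which understates the change of low genes, while a fold printed for a single gene is the ratio of its FPKM values.

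**Figure D1:**
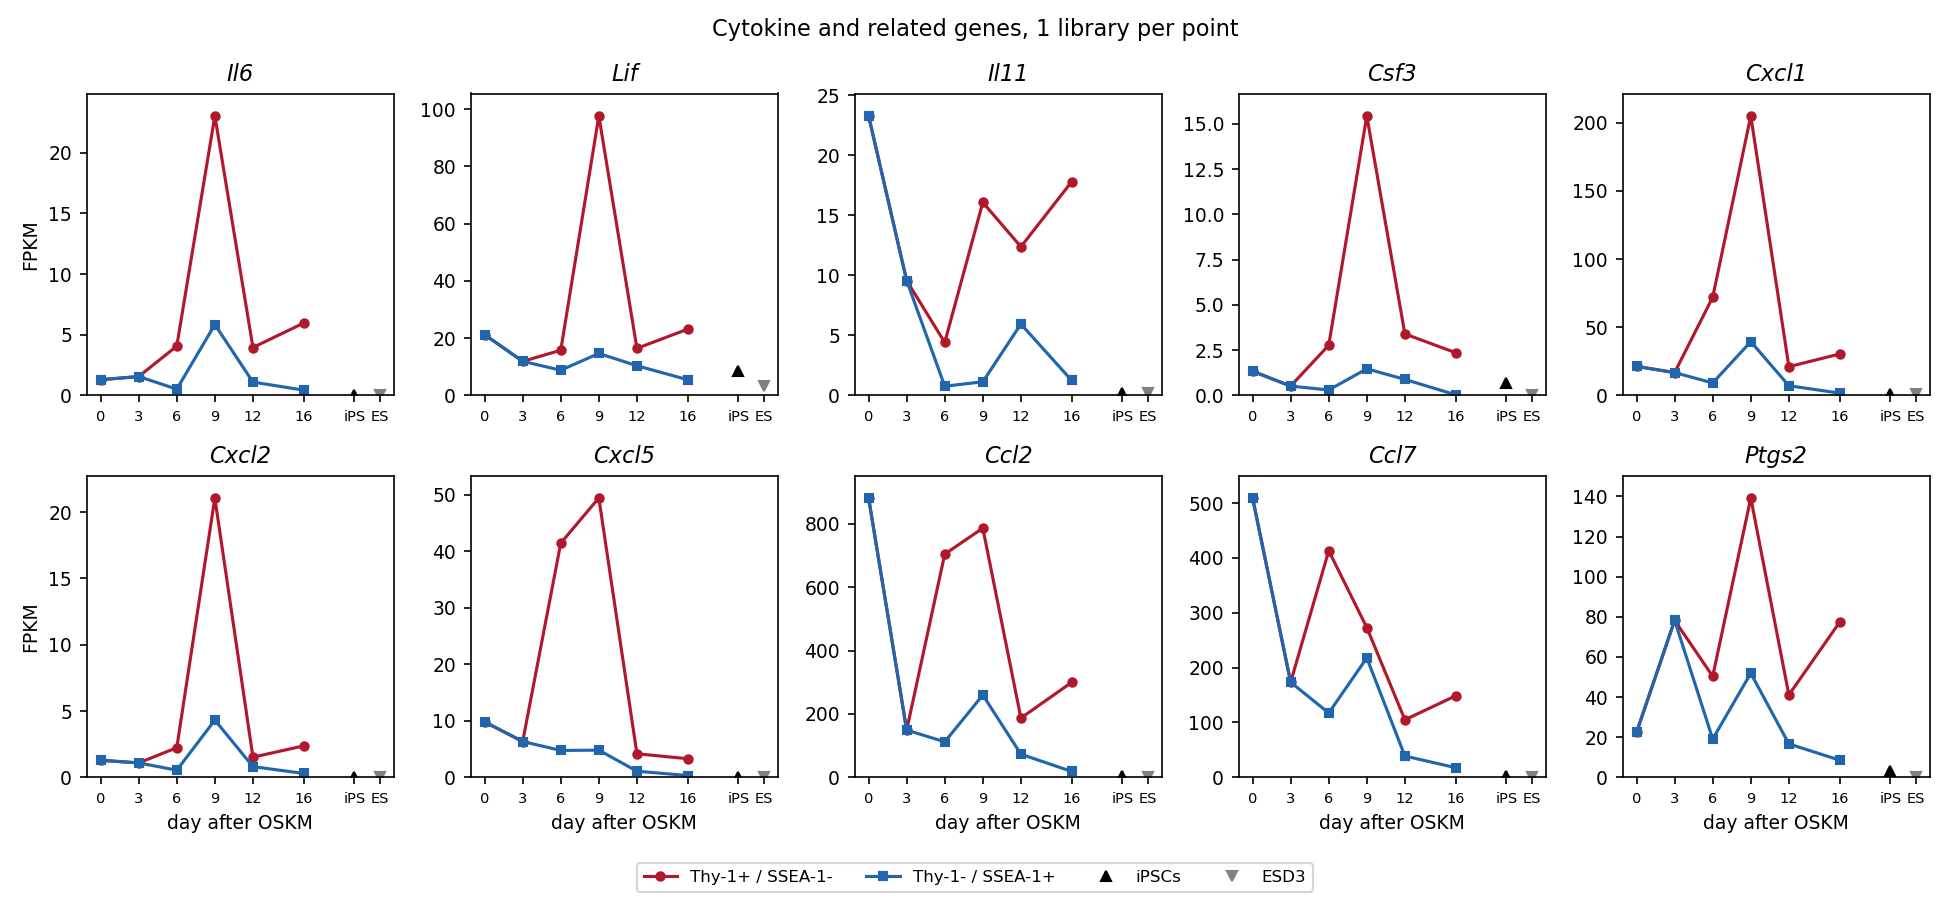
FPKM of each gene (vertical axis, starting at 0, with its own scale in each panel) by day after OSKM, with 1 library per point. Red circles are D0, D3 and the Thy-1+ or SSEA-1- cells, blue squares D0, D3 and the Thy-1- or SSEA-1+ cells, and triangles iPSCs and ESD3. Il6, Lif, Csf3 and Cxcl2 form a single spike at D9T+, Cxcl1 was already higher in D6T+ than in D3 (72.0 against 16.6 FPKM), Cxcl5 and Ccl2 were nearly as high in D6T+ as in D9T+, and every gene is lower in the blue than in the red library of the same day.

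Among the gp130 ligands, Il6 and Lif shared the day 9 Thy-1+ peak and Il11 did not. Il6 was at 1.28 FPKM in D0, 1.54 in D3, 4.06 in D6T+, 23.0 in D9T+, 3.94 in D12S- and 5.96 in D16S-. On the other route it was at 0.503 FPKM in D6T-, 5.83 in D9T-, 1.09 in D12S+ and 0.420 in D16S+, and it was listed at 0 in iPSCs and ESD3. The next levels of Il6, in D16S- and D9T-, were close to each other although those libraries lie on opposite routes, and D6T-, D16S+ and both pluripotent lines were lowest.

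Lif was at 21.2 FPKM in D0, 11.9 in D3, 15.7 in D6T+, 97.7 in D9T+, 16.4 in D12S- and 23.1 in D16S-. It was at 8.75 FPKM in D6T-, 14.6 in D9T-, 10.3 in D12S+, 5.42 in D16S+, 8.35 in iPSCs and 3.20 in ESD3. The other 11 libraries lay between 3.20 and 23.1 FPKM, so Lif was transcribed throughout and stood out in D9T+ only, 4.23-fold above D16S-, the next library. Lif was also the gene of the 10 with the highest level in iPSCs and in ESD3. By the estimated fragments, the D9T+ value rests on about 8031 fragments and the D16S- value on about 1963.

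Il11 was at 23.3 FPKM in D0, 9.55 in D3, 4.40 in D6T+, 16.1 in D9T+, 12.4 in D12S- and 17.8 in D16S-. It was at 0.753 FPKM in D6T-, 1.12 in D9T-, 5.93 in D12S+, 1.23 in D16S+, 0.198 in iPSCs and 0.210 in ESD3. Il11 was therefore lower on day 6 than on day 0 in both sorted fractions, came back in the Thy-1+ and SSEA-1- cells, and had no spike on day 9. Over the 12 libraries its log2(FPKM + 1) had a Pearson r of 0.72 with the mean of the other 9 genes, the lowest of the 10.

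Csf3 had the lowest peak. It was at 1.33 FPKM in D0, 0.507 in D3, 2.77 in D6T+, 15.4 in D9T+, 3.39 in D12S- and 2.35 in D16S-. It was at 0.291 FPKM in D6T-, 1.46 in D9T-, 0.875 in D12S+, 0.0250 in D16S+ and 0.659 in iPSCs, and was listed at 0 in ESD3. D9T+ was 4.56-fold above D12S-, the next library, from about 403 against 98 fragments, while the D16S+ value corresponds to about 1 fragment.

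Of the CXC chemokines that act on neutrophils, Cxcl1 and Cxcl5 were already high in D6T+ and Cxcl2 was not. Cxcl1 was at 21.2 FPKM in D0, 16.6 in D3, 72.0 in D6T+, 205 in D9T+, 21.0 in D12S- and 30.3 in D16S-. It was at 9.05 FPKM in D6T-, 39.4 in D9T-, 7.0 in D12S+, 1.55 in D16S+, 0.634 in iPSCs and 0.674 in ESD3. The 3 highest libraries were thus D9T+, D6T+ and D9T-, and Cxcl1 was the highest of the CXC genes in each of them.

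Cxcl2 was at 1.29 FPKM in D0, 1.09 in D3, 2.23 in D6T+, 21.1 in D9T+, 1.52 in D12S- and 2.37 in D16S-. It was at 4.31 FPKM in D9T-, at 0.537 in D6T-, 0.808 in D12S+, 0.292 in D16S+ and 0.0452 in iPSCs, and was listed at 0 in ESD3. Its 2 highest libraries were both those of day 9, and D9T+ was 4.88-fold above D9T-, the largest gap of the 10 genes between the highest library and the next.

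Cxcl5 was at 9.82 FPKM in D0, 6.34 in D3, 41.5 in D6T+, 49.5 in D9T+, 4.18 in D12S- and 3.30 in D16S-. It was at 4.76 FPKM in D6T-, 4.82 in D9T-, 1.09 in D12S+, 0.322 in D16S+ and 0.0279 in iPSCs, and was listed at 0 in ESD3. Cxcl5 was high in the Thy-1+ cells of both days and low in every other library, and D9T+ was only 1.19-fold above D6T+ (95% counting interval 1.11 to 1.28).

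The CC chemokines were the most abundant of the 10 and began high. Ccl2 was at 882 FPKM in D0, 149 in D3, 704 in D6T+, 786 in D9T+, 187 in D12S- and 299.7 in D16S-. It was at 112 FPKM in D6T-, 259.6 in D9T-, 73.0 in D12S+, 18.6 in D16S+, 4.13 in iPSCs and 0.893 in ESD3. Ccl7 was at 509 FPKM in D0, 173 in D3, 413 in D6T+, 273 in D9T+, 105 in D12S- and 149 in D16S-.

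Ccl7 was at 117 FPKM in D6T-, 218 in D9T-, 38.9 in D12S+, 17.6 in D16S+, 2.02 in iPSCs and 0.555 in ESD3. Both CC genes were therefore low on day 3 and nearer to their day 0 level in D6T+, and low in D6T-. Ccl7 was lower in D9T+ than in D6T+ (fold 0.661), the 1 gene of the 10 with that direction, and its day 9 fractions were only 1.25-fold apart. Ccl2 and Ccl7 had the highest r of all 45 pairs of the 10 genes (0.985 over 12 libraries), followed by Cxcl2 and Il6 (0.963). The libraries of a pair share their depth and the sorted cells, so these r values are a description.

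Ptgs2, the enzyme, was at 22.4 FPKM in D0, 78.2 in D3, 50.4 in D6T+, 139 in D9T+, 41.1 in D12S- and 77.3 in D16S-. It was at 19.1 FPKM in D6T-, 51.9 in D9T-, 16.7 in D12S+, 8.57 in D16S+, 3.05 in iPSCs and 0.133 in ESD3. Ptgs2 was the 1 gene of the 10 at least 2-fold higher on day 3 than on day 0 (3.49-fold), and D3, D9T+ and D16S- were its 3 highest libraries.

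**Figure D2:**
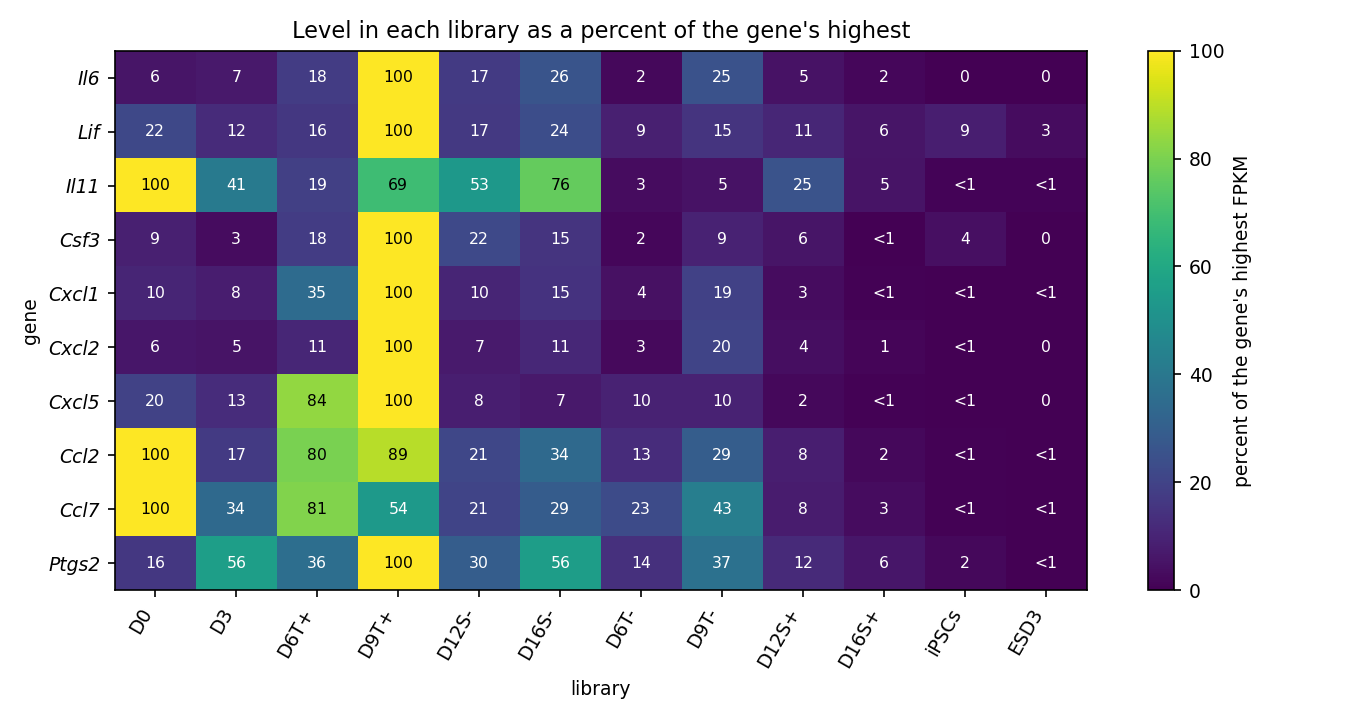
Level of each gene (rows) in each library (columns) as a percent of that gene's highest FPKM, from 0 (dark) to 100 (yellow). The column of D9T+ holds 100 in 7 rows, and Ccl2, Ccl7 and Il11 have their 100 in D0. Il11 stands out by its level in D16S- (17.8 of 23.3 FPKM), and Cxcl5, Ccl2 and Ccl7 by their high levels in D6T+ (41.5, 704 and 413 FPKM).

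The sorted fractions of day 6 were compared next, a difference that does not contain the D9T+ value. The 10 genes were chosen with earlier results of these data known, so this comparison is a description as well. All 10 genes were higher in D6T+ than in D6T-, and 9 of the 10 were at least 2-fold higher, against 9.47% of the kept genes. The exception, Lif, was 1.80-fold higher (1.67 to 1.94). The median difference in log2(FPKM + 1) was 1.69, with a range from 0.78 in Lif to 2.88 in Cxcl5, beside a median of -0.0046 over all kept genes.

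The largest ratio of day 6 was that of Csf3, a low gene, and the ratios of low genes were the least precise. Csf3 was 9.51-fold higher (95% counting interval 5.30 to 19.4) from about 94 against 12 fragments, and Il6 was 8.06-fold higher (4.82 to 15.4) from about 101 against 15. Among the abundant genes, Cxcl5 was 8.71-fold higher (7.62 to 10.0), Cxcl1 7.95-fold (6.95 to 9.18), Ccl2 6.28-fold (6.01 to 6.57) and Ptgs2 2.64-fold (2.52 to 2.76).

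On day 9, as a description, all 10 genes were higher in D9T+ than in D9T-, and 9 were at least 2-fold higher, against 6.45% of the kept genes. The median difference was 2.20, and for the 6 genes not chosen by the D9T+ value it was 1.97. Il11 had the largest ratio (14.4-fold, from about 364 against 29 fragments), followed by Csf3 (10.6-fold) and Cxcl5 (10.3-fold). Lif was 6.68-fold higher, Cxcl1 5.21-fold, Cxcl2 4.88-fold, Il6 3.95-fold, Ccl2 3.03-fold, Ptgs2 2.68-fold and Ccl7 1.25-fold.

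On days 12 and 16 the fractions were sorted on SSEA-1 in place of Thy-1, and the same direction was measured. On day 12, all 10 genes were higher in D12S- and 7 were at least 2-fold higher, against 3.03% of the kept genes, with a median difference of 1.25. The 3 under 2-fold on this scale were Il11 (0.95), Lif (0.62) and Cxcl2 (0.48). On day 16, all 10 were at least 2-fold higher in D16S- than in D16S+, against 15.2% of the kept genes, with a median of 2.65 and the largest difference in Ccl2 (3.94). Cxcl1 was 19.5-fold higher (14.1 to 27.8), Ccl2 16.1-fold (14.5 to 18.0), Il11 14.4-fold and Il6 14.2-fold (8.11 to 29.3), while no ratio is given for Csf3, at about 1 fragment in D16S+.

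Over the 4 days, all 10 genes were higher in the Thy-1+ or SSEA-1- cells each time, as were 24.8% of the kept genes. Of these, 6 were at least 2-fold higher on all 4 days (Il6, Csf3, Cxcl1, Cxcl5, Ccl2 and Ptgs2), against 1.07%. Neither scaling each library to the same total FPKM nor a median-of-ratios scaling turned any of these 40 differences, and neither could have. The smallest of the 40 was 0.326, while the total scaling shifts these pairs by at most 0.115. The median-of-ratios factors of the 12 libraries lay between 1 and 1.015. Fibroblast markers moved with the same fractions: the summed level of 10 of them, Thy1 included, was 4837 FPKM in D6T+ against 1004 in D6T-, 3532 in D9T+ against 991 in D9T-, 1567 in D12S- against 837.8 in D12S+ and 1124 in D16S- against 270.1 in D16S+. The median differences of the 10 fibroblast markers were 2.59, 2.25, 1.23 and 2.58 on days 6, 9, 12 and 16. Those of the 10 cytokine and related genes were 1.69, 2.20, 1.25 and 2.65. The part of the fibroblast markers in the differences between fractions was not tested. From D6T+ to D9T+, 0 of the 10 fibroblast markers were 2-fold apart in either direction. In the same step, 5 of 9 pluripotency markers and 4 of 8 epithelial markers were at least 2-fold higher, against 4.92% of the kept genes. The part of the pluripotency and epithelial markers in the day 9 values was not tested.

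**Figure D3:**
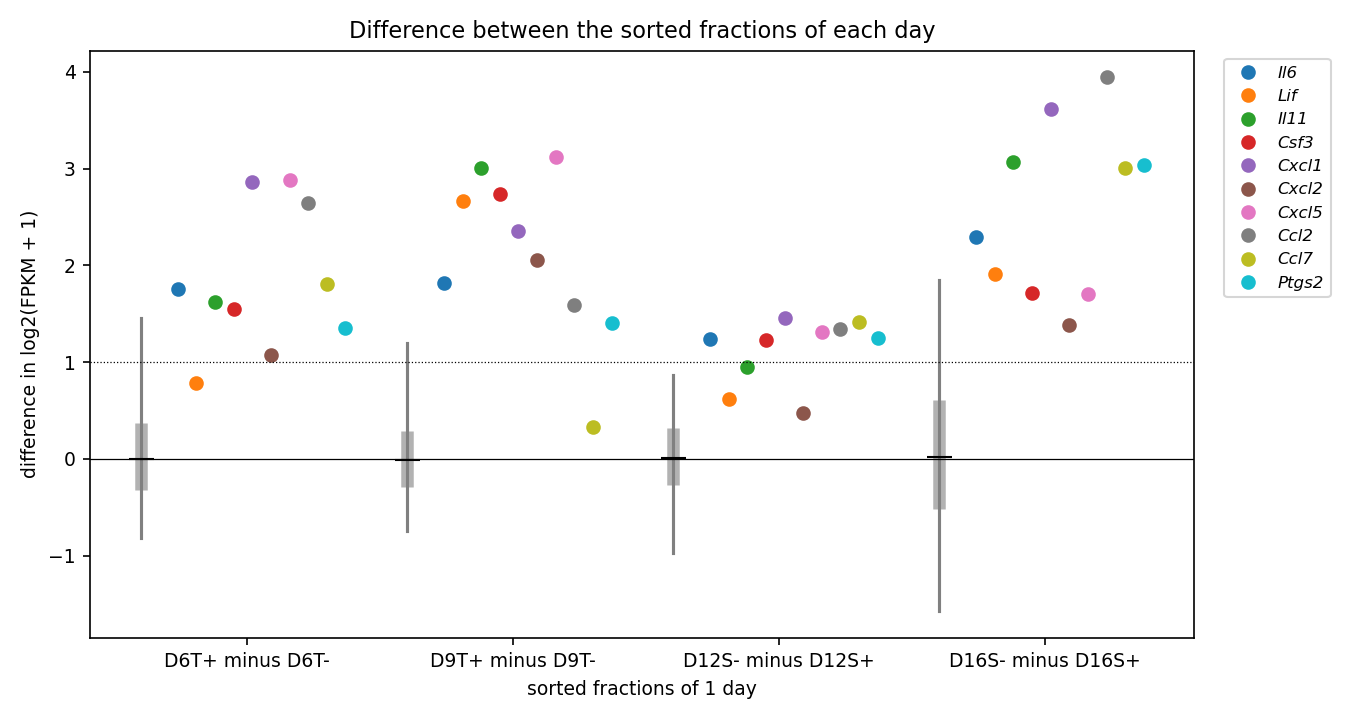
Difference in log2(FPKM + 1) between the sorted fractions of each day (vertical axis), Thy-1+ minus Thy-1- on days 6 and 9 and SSEA-1- minus SSEA-1+ on days 12 and 16, with 1 coloured point per gene. The thick grey bar beside them spans the quartiles of all kept genes, the thin grey line their 5th to 95th percentiles, the black tick is their median, and the dotted line is 2-fold. All points lie above 0 on each day, between 0.78 and 2.88 on day 6 and between 1.38 and 3.94 on day 16.

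Along the Thy-1+ route, the genes moved in steps that differed between them. From D0 to D3, 3 genes were at least 2-fold lower (Ccl2, Ccl7 and Il11), against 8.67% of the kept genes, and Ptgs2 was higher. From D3 to D6T+, 5 were at least 2-fold higher (Csf3, Cxcl1, Cxcl5, Ccl2 and Ccl7), against 5.16%. From D6T+ to D9T+, 7 were at least 2-fold higher, against 4.92%: Cxcl2 (9.43-fold), Lif (6.21-fold), Il6 (5.68-fold), Csf3 (5.58-fold), Il11 (3.65-fold), Cxcl1 (2.85-fold) and Ptgs2 (2.77-fold). The 4 genes chosen by the D9T+ value are all among these 7, with 3 of the other 6, whose median difference was 0.849.

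From D9T+ to D12S-, 9 of the 10 were at least 2-fold lower, against 3.31% of the kept genes. The 4 genes chosen by the D9T+ value are all among these 9, with 5 of the other 6. Il11 was the exception, at 0.770 of its D9T+ level. The largest falls in ratio were those of Cxcl2 (13.9-fold), Cxcl5 (11.8-fold) and Cxcl1 (9.78-fold), and the sorting marker changed between these 2 libraries. From D12S- to D16S-, 8 of the 10 were higher, as were 6926 of the 14178 kept genes. None of the 8 was higher by 2-fold, and Csf3 and Cxcl5 were lower.

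The Thy-1- cells, too, had higher levels on day 9 than on day 6. In D9T-, 5 genes were at least 2-fold higher than in D6T- (Il6, Cxcl1, Cxcl2, Ccl2 and Ptgs2), against 5.06% of the kept genes. Il6 was 11.6-fold higher, Cxcl2 8.03-fold (5.49 to 12.4) and Cxcl1 4.35-fold (3.76 to 5.07). Lif was 1.67-fold higher and Cxcl5 1.01-fold (0.830 to 1.24), so that Cxcl5 was not distinguishable between D6T- and D9T- at this depth. From D9T- to D12S+, Il11 was the 1 gene that was higher, 5.30-fold. The other 9 were lower, as were 6862 of the 14178 kept genes. From D12S+ to D16S+ all 10 were lower, as were 7481 of the 14178.

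Against the starting fibroblasts, 7 of the 10 genes were at least 2-fold higher in D9T+ than in D0, against 10% of the kept genes: Il6 by 18.0-fold, Cxcl2 by 16.4-fold, Csf3 by 11.6-fold, Cxcl1 by 9.68-fold, Ptgs2 by 6.21-fold, Cxcl5 by 5.04-fold and Lif by 4.61-fold. The 4 genes chosen by the D9T+ value are all among these 7, with 3 of the other 6. Il11, Ccl2 and Ccl7 were below D0, at 0.690, 0.892 and 0.536 of its level. In iPSCs, 9 of the 10 were at least 2-fold lower than in D0, against 21.6% of the kept genes, and Csf3 (0.659 against 1.33 FPKM) was the tenth. By FPKM, Ccl7 was 252-fold lower, Ccl2 213-fold and Il11, at about 5 fragments in iPSCs, 117.5-fold, while Lif was 2.54-fold lower. A scaling of each library to the same total FPKM moves the median of all kept genes by 0.13 in the former comparison and 0.16 in the latter, and gives 7 and 8 genes, with 8 in place of 7 then highest in D9T+ of all libraries.

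Other members of the same families and pathways were taken from fixed lists, and each is described by D9T+ against D9T-, the pair in which 6.45% of the kept genes passed 2-fold upwards and 1.81% downwards. No list had a member that was 2-fold lower. Of 12 receptors for the ligands and chemokines among the 10 genes, 6 were kept and 2 were higher. Il11ra1, the IL-11 receptor, was at 30.1 FPKM in D9T+ and 9.47 in D9T-, and Ackr2, a scavenger of CC chemokines, was at 1.39 against 0.183.

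Receptors known from leukocytes were at or near 0 on day 9. Csf3r, Cxcr1, Ccr2 and Ccr3 were listed at 0 in both day 9 libraries, and Cxcr2 was at 0.0164 FPKM in D9T+. The gp130 side was present: Il6st, which encodes gp130, was at 26.9 FPKM in D9T+ and 21.7 in D9T-, Il6ra at 10.3 and 9.33, and Lifr at 1.87 and 4.11, so that Lifr was the higher in D9T-.

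Among the other IL-6 family ligands, 2 of 7 kept genes were higher in D9T+. Clcf1, a cytokine that signals through the CNTF receptor, was at 39.3 against 9.94 FPKM. Osm, which encodes oncostatin M and lies beside Lif, was at 0.0810 FPKM in D9T+, and was at 2.82 FPKM in D12S+, 4.56 in D16S+ and 3.46 in iPSCs. Among colony stimulating factors, 1 of 2 kept genes was higher: Csf1, the macrophage factor, at 125 against 40.5 FPKM. Csf2 did not reach 1 FPKM in any library.

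Of 12 other inflammatory chemokines kept, 5 were higher in D9T+, with a median of 0.62. Cxcl3, a further CXCR2 ligand, was at 11.5 against 0.781 FPKM, Ccl11, the eosinophil chemokine eotaxin, at 23.2 against 4.91, and Cxcl10, an interferon-induced chemokine, at 20.2 against 6.46. Of 4 homeostatic chemokines kept, 1 was higher: Cxcl12, at 14.1 against 1.81 FPKM. Unlike the genes of the peak, Cxcl12 (77.0 FPKM), Ccl11 (54.6) and Cxcl10 (31.7) were highest in D0.

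Neighbours within the chemokine clusters did not share a single pattern. In the CXC cluster, Cxcl3 lies between Cxcl5 and Cxcl1 and resembled Cxcl5, at 10.5 FPKM in D6T+, 0.849 in D6T-, 11.5 in D9T+ and 0.781 in D9T-. Pf4 and Ppbp, platelet chemokines of the same cluster, did not. Pf4 was at 14.2 FPKM in D0 and at 0.869 in D9T+, and Ppbp was highest in D3 (27.3 FPKM) and at 0.459 in D9T+.

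In the CC cluster, Ccl8, a further CC chemokine, was at 202 FPKM in D0, 46.3 in D6T+, 11.7 in D6T-, 33.4 in D9T+ and 59.5 in D9T-. Its day 9 difference was thus opposite to that of Ccl2 and Ccl7. Ccl12, at 49.0 FPKM in D0, was at most 1.73 FPKM in every other library. Pla2g4a, the phospholipase that releases arachidonic acid for COX-2 and whose gene lies near Ptgs2, was at 9.62 FPKM in D9T+ and 2.79 in D9T-.

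**Figure D4:**
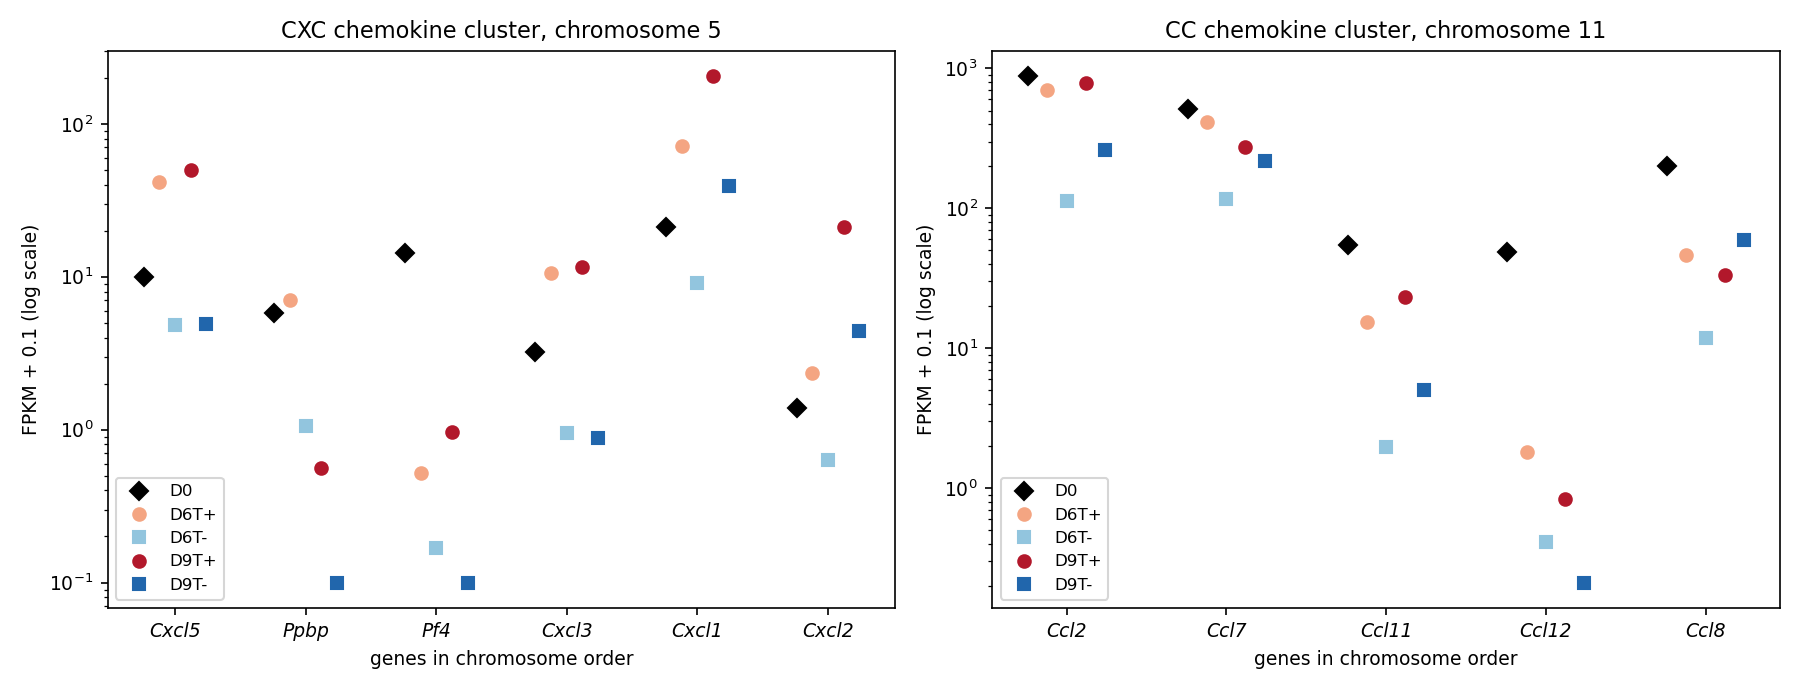
FPKM + 0.1 on a log axis for the chemokine genes of the cluster on chromosome 5 (left) and on chromosome 11 (right), in chromosome order, in D0 (black diamonds), D6T+ and D9T+ (orange and red circles) and D6T- and D9T- (light and dark blue squares), with 1 library per point. Circles lie above squares of the same day for Cxcl5, Cxcl3, Cxcl1 and Cxcl2 on both days, Pf4 and Ccl12 are high in D0 only, and Ccl8 is higher in D9T- than in D9T+.

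The signals that are known to induce these genes were examined next. Of 11 kept genes for interleukin-1 and TNF signals, 4 were higher in D9T+, and all 4 belong to the interleukin-1 family of ligands and receptors: Il1rl1 (18.7 against 1.04 FPKM) and Il33 (20.4 against 1.65), a receptor and its alarmin ligand, Il1r1 (12.5 against 1.27), the interleukin-1 receptor, and Il1rap (8.86 against 2.76), its co-receptor. In D0, D6T+ and D9T+, Il1r1 was at 35.5, 16.5 and 12.5 FPKM and Il1rl1 at 36.9, 30.8 and 18.7. Il1rap was at 9.59, 11.6 and 8.86 FPKM in the same libraries and Il33 at 19.1, 15.2 and 20.4. The receptor genes were thus lower in D9T+ than in D0 and D6T+, and Il33 was not. Transcripts of the inducing cytokines themselves were low: in D9T+, Il1a was at 0.104 FPKM, Il1b at 0.242 and Tnf at 0.442. Il1rn, the receptor antagonist, was at 6.81 FPKM in D9T+ and 6.44 in D9T-.

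Of 17 NF-kappaB factors and feedback targets, 2 were higher in D9T+, with a median of 0.46. Nfkbiz, which encodes a nuclear protein of the IkappaB family, was at 76.8 against 16.3 FPKM, and Vcam1, an adhesion molecule, at 31.2 against 7.94. Of the feedback targets, Tnfaip3 and Nfkbia, picked after their values were seen, were higher on day 9 than on day 6 in both fractions. The list as a whole had smaller differences, with a median of 0.426 for D9T+ minus D6T+ and 0.281 for D9T- minus D6T-. At least 2-fold higher were 3 of the 17 in D9T+ than in D6T+, against 4.92% of the kept genes. In D9T- against D6T- they were 2 of the 17, against 5.06%. Tnfaip3, which encodes the inhibitor A20, was at 1.93 FPKM in D0, 5.50 in D6T+, 1.34 in D6T-, 34.5 in D9T+ and 23.3 in D9T-, and Nfkbia, which encodes IkappaBalpha, was at 45.0, 84.7, 33.8, 174 and 126 FPKM in the same libraries.

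Of 8 genes of the C/EBP and STAT3 pathway, 3 were higher in D9T+. Cebpb, a factor known from the Il6 promoter, was at 101 against 19.2 FPKM, and Cebpd at 73.4 against 19.7. Both had their highest level of all libraries in D9T+. Socs3, a feedback target of STAT3, was at 111 FPKM in D9T+ and 97.0 in D9T-, and Stat3 itself at 100.0 and 85.7, so neither separated the fractions by 2-fold.

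Of 9 AP-1 genes, 3 were higher in D9T+ than in D9T-. Fosl1 was at 94.2 against 22.8 FPKM, Fosl2 at 90.6 against 32.1 and Junb at 437 against 169. From D6T+ to D9T+, 6 of the 9 were at least 2-fold higher, with a median of 1.25, against 4.92% of the kept genes. Others were alike in both fractions of day 9: Fos was at 167 FPKM in D9T+ and 149.6 in D9T-, and Atf3 at 43.4 and 45.2, up from 4.32 in D6T+ and 8.30 in D6T-. The part of these immediate-early genes in the day 9 values was not tested.

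Factors that govern the decay of AU-rich transcripts were expressed in the same cells, and 2 of 8 kept genes were higher in D9T+. Zc3h12a, which encodes the RNase Regnase-1, was at 39.4 against 16.3 FPKM, and Zfp36l2 at 29.7 against 11.2. Zfp36, which encodes tristetraprolin, was at 193 FPKM in D9T+ and 103 in D9T-. It was at 39.9 in D0, 77.2 in D6T+ and 63.9 in D6T-.

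Around COX-2, 4 of 11 kept genes of prostaglandin synthesis and reception were higher in D9T+. Ptgs1, the constitutive enzyme COX-1, was at 65.3 against 7.94 FPKM, Ptges, a prostaglandin E synthase, at 66.6 against 8.05, and Ptgis, the prostacyclin synthase, at 33.9 against 1.55. Ptges (202 FPKM) and Ptgis (225 FPKM) were highest in D0 and Ptgs1 in D6T+ (110 FPKM). The list of other secreted and cell-cycle genes of the senescence secretome had the largest share of the 12 lists around the cytokines, fibroblast markers not among them, with 11 of 17 kept genes higher and a median of 1.38. Areg, an EGF receptor ligand, was at 38.0 against 3.39 FPKM, Igfbp7 at 81.1 against 7.90 and Plau at 51.9 against 4.99. Cdkn1a, which encodes the cell-cycle inhibitor p21, was at 666 against 507 FPKM. Igfbp7 (479 FPKM) and Plau (519 FPKM) were highest in D0 and Areg in D9T+. On day 6 this list already had 13 of 17 genes higher in D6T+ than in D6T-, against 9.47% of the kept genes, with a median of 1.91. From D6T+ to D9T+, 3 were at least 2-fold higher and 1 lower, with a median of -0.081. The same step had 698 and 195 of the 14178 kept genes. Against D0, 3 were at least 2-fold higher in D9T+ and 8 lower, against 1421 and 1067 of the 14178.

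**Figure D5:**
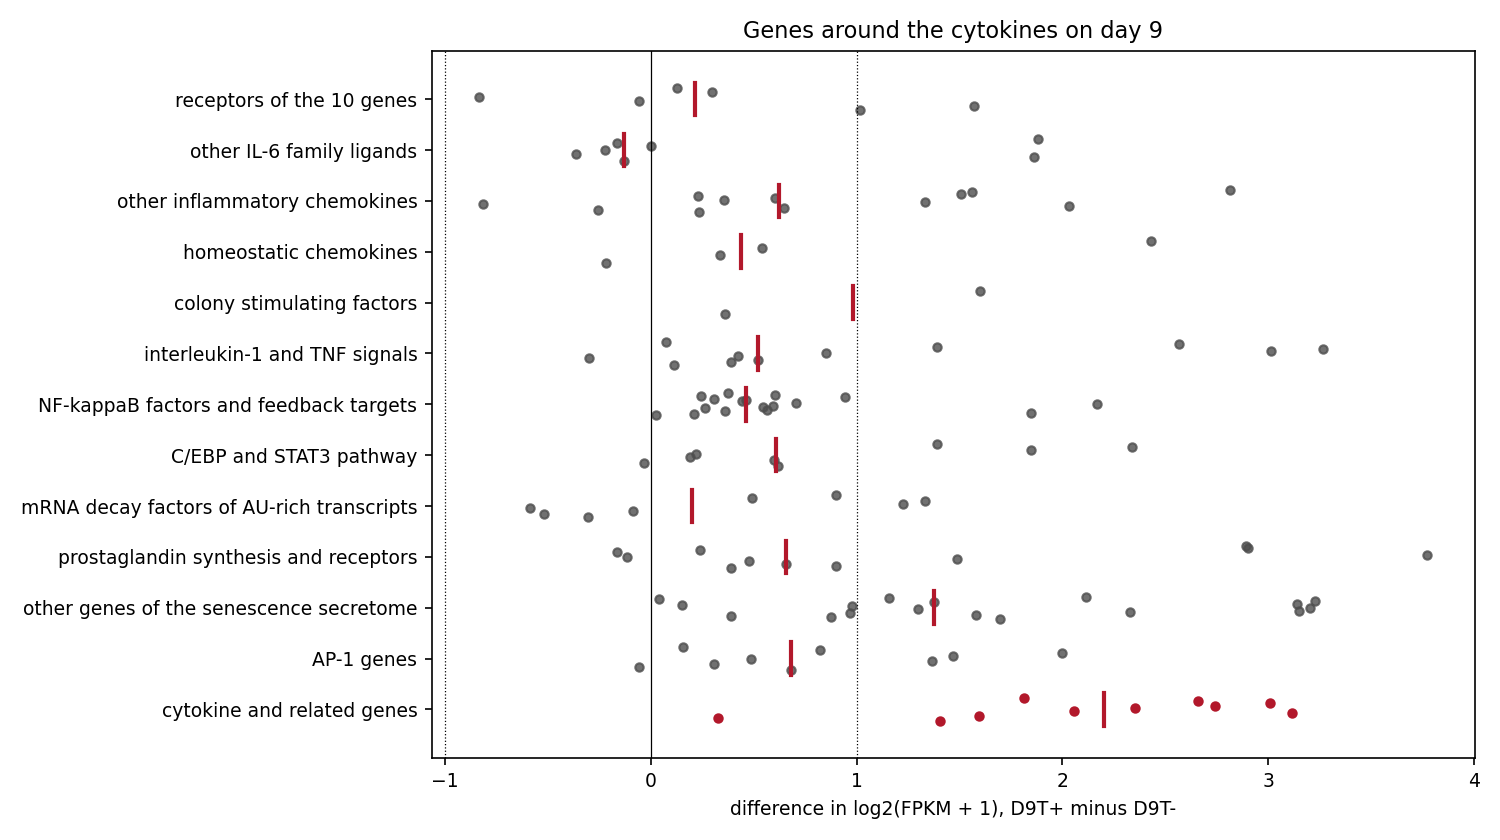
Difference in log2(FPKM + 1), D9T+ minus D9T- (horizontal axis), for the kept genes of 12 lists around the cytokines, with 1 grey point per gene and a red line at each list's median. The lowest row holds the 10 genes described here in red, 4 of which were chosen by their D9T+ value. Their median is 2.20, the senescence secretome list has 1.38 and the NF-kappaB list 0.46. The fibroblast markers, which are not drawn, have a median of 2.25. The dotted lines mark 2-fold in either direction.

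Markers of leukocytes, cells that make the same cytokines, were low in D9T+. Of 17 such markers, 4 reached 1 FPKM there (Cd68 at 18.0, Cd14 at 9.38, Cd74 at 2.36 and Csf1r at 1.98), 3 were listed at 0, and the defining marker Ptprc, which encodes CD45, was at 0.0377 FPKM. Their summed level was 33.9 FPKM in D9T+, 36.2 in D9T-, 27.3 in D6T+, 16.4 in D6T- and 39.8 in D0. On days 12 and 16 it was 87.9 FPKM in D12S-, 80.2 in D12S+, 172 in D16S- and 78.1 in D16S+, of which Cd68 gave 68.3, 63.5, 115 and 62.0. In D0, 8 of the 17 markers reached 1 FPKM, and Cd68 was at 9.05. Lyz2 was at 9.47 FPKM in D0 and 0.576 in D9T+ and Tyrobp at 3.38 and 0.114, while Cd68, Cd74 and Csf1r were higher in D9T+. The part of these markers in the D0 values and in the differences of days 12 and 16 was not tested.

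The genes most like the 10 across all 12 libraries were found by the Pearson correlation of log2(FPKM + 1) with the mean of the 10 scaled genes, among 10795 other genes that reached 5 FPKM in a library. The 8 highest were Nfkbiz (r = 0.98), Ereg (0.98), an EGF family growth factor, Sqstm1 (0.97), an autophagy adaptor, Pde4b (0.97), a cAMP phosphodiesterase, Gpnmb (0.97), a membrane glycoprotein, Rgs2 (0.97), a regulator of G proteins, Arid5a (0.96), an RNA-binding protein, and Thbd (0.96), which encodes thrombomodulin. The 12 points share their libraries and the order of the routes, and r is given as a description.

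All 8 were highest in D9T+, which the ranking favours and which is no separate finding. Of the 10 genes in the mean, 7 were highest there, and 4 of these were chosen for it. Ereg was at 42.1 FPKM in D9T+, 16.9 in D6T+, 7.58 in D9T- and 0.0944 in iPSCs, and Thbd was at 208, 90.4, 20.9 and 2.69 FPKM in the same libraries. Rgs2, which lay lower in D6T+ (3.85 FPKM) than in D0 (5.43), was at 18.0 in D9T+. Sqstm1 had the shallowest profile, from 160.0 FPKM in ESD3 to 771 in D9T+.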

How the data were processed

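Messenger RNA from 12 conditions, 1 library each, was sequenced on a HiSeq instrument. The labels name a stranded mRNA TruSeq kit and the study's methods a TruSeq RNA kit, so whether strand was kept is uncertain. The authors mapped reads to mm9 with STAR, removed reads with more than 2 mismatches or more than 1 locus, and ran cuffdiff (versions not given in the sources used here). The deposited values are FPKM with the ends of the cuffdiff interval. With 1 library per condition, the interval holds no variation measured between replicates of that condition. The 12 columns of cuffdiff status words were not used.

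Columns were matched to libraries by day and sign of the sorting marker. Values were analysed as log2(FPKM + 1) in Python 3.11.15 with pandas 2.3.3, numpy 2.4.6 and scipy 1.17.1, without a test, and called at 2-fold. Fragments were estimated from the most common FPKM step of low single-transcript genes over 2000 bases, with 200 bases taken off each length. Genes were named if they are 1 of the 10, if they were among up to 4 genes per list with the largest difference of at least 2-fold between D9T+ and D9T- and 5 FPKM in either, or among the 8 most alike; 2 genes that this rule names are not reported here. Others (receptors, inducing cytokines, feedback targets and cluster neighbours named with low or like values) were picked after their values were seen. The 10 genes, the lists and the motifs were chosen with earlier results of these data known. Fold counts, steps and likeness were tested on simulated data. Lists beside those of the report were endothelial (0 of 7 at least 2-fold higher in D9T+ than D9T-, 1 lower), pluripotent (0 of 9 higher, 6 lower) and epithelial markers (0 of 8 higher, 3 lower); the fibroblast list had 9 of 10 higher and the leukocyte list 0 of 11 in either direction. Alternatives covered the pseudocount, 2 scalings, the filter, the fold threshold, the intervals and the choice of genes.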

Additional observations from a re-analysis of the deposited data

How the results depend on the processing

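Of 84 recomputed values over 14 results, 64 stayed within a margin of the value given. The margin was 1.5 times the value for a count and a shift of 1.5-fold on the log2 scale for a median difference. Of the medians, 0 changed sign, and a count cannot do so. Both scalings moved none past that margin. The median-of-ratios factors lay between 1 and 1.015, and the total scaling shifts a comparison by at most 0.246 on the log2 scale. Neither could move a median past its margin. The 14 values without a filter could not move, since all 10 genes pass it. With a threshold of 4-fold, 2 genes stood above every other library in D9T+, 3 of 10 were higher in D6T+, 0 in D12S- and 6 in D16S-. By cuffdiff intervals that do not overlap, 0 genes were higher in D6T+, D9T+ (against D9T- or D0), D12S- or D16S-, and 2 were lower in iPSCs than in D0. With a pseudocount of 0.1, the median difference became 2.53 on day 6, 3.35 on day 16 and -4.32 from D0 to iPSCs. Of the 6 genes not chosen by the D9T+ value, 3 were highest in D9T+ and 1 stood 2-fold above every other library there. Of the same 6, 5 were 2-fold higher in D9T+ than in D9T-, 6 in D16S- than in D16S+ and 3 in D9T+ than in D0. The 4 left out had been chosen by the D9T+ value. These counts of 6 genes were set against counts of 10. The count in D16S- therefore fell outside the margin although all 6 genes passed 2-fold. The median of the 6 was 1.03 from D0 to D9T+ and -4.05 from D0 to iPSCs. With D9T+ left out, the highest library was D0 for 3 genes, D6T+ and D16S- for 2 each, and D3, D12S- and D9T- for 1 each, which gives no count to compare. Without D0 (added after the data were seen) the 7 genes highest in D9T+ became 8, and without Il6, listed at 0 in iPSCs, the median from D0 to iPSCs was -3.40. No paired analysis was possible because each condition has 1 library and the groups share no replicate numbers; a test with the 4 days as pairs was not made. One library per condition limits every value: the D9T+ peak rests on 1 library, and low levels such as Csf3 in D16S+ rest on about 1 fragment.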
